A study of Homo sapiens with 24 samples.

Results

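The transcripts described here are those of 36 aminoacyl-tRNA synthetases, chosen by gene symbol as a functional family, with earlier results of these data known. The family holds 20 cytosolic enzymes and 16 mitochondrial ones, whose names end in 2. It makes up 36 of the 25277 symbols in the deposited table, and all 36 were among the 13622 symbols with enough signal to be tested. They were measured by RNA-seq in 2 human prostate cancer sublines after siRNA against POM121, a membrane protein of the nuclear pore. The study's labels speak of a knockout, but the treatment was siRNA, that is, a knockdown. In 22Rv1DR cells the groups were siPOM121 construct 1 (libraries 4B and 5B), siPOM121 construct 2 (4C and 5C) and control (4A and 5A). In DU145DR cells they were siPOM121 construct 1 (1B and 2B), siPOM121 construct 2 (1C and 2C) and control (1A and 2A). 22Rv1DR and DU145DR are derived from the human prostate cancer lines 22Rv1 and DU145 and are called aggressive sublines in the labels. All groups carry that background, and the labels say no more of the control than its name. Each library was read on 2 lanes, which were averaged. The labels do not say whether the 2 libraries of each group are separate cultures. The p-values thus cover the spread among these 12 libraries, which may be technical. Read depth is unknown, because the table holds levels per transcript length and library size (FPKM, deposited as log2) and no counts.

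Aminoacyl-tRNA synthetases join each amino acid to its own tRNAs, the step that fixes which amino acid a codon stands for. Human cells mostly keep separate enzymes for the cytosol and for the mitochondrion, both encoded in the nucleus. GARS and KARS each encode the glycine or lysine enzyme of both compartments from 1 gene. QARS, the glutamine enzyme, has no mitochondrial counterpart among the members, and in mitochondria EARS2 also charges the glutamine tRNAs. In the cytosol EPRS, IARS, LARS, MARS, QARS, RARS, KARS and DARS are held together in the multisynthetase complex, on the scaffold proteins AIMP1, AIMP2 and EEF1E1. Several cytosolic synthetase genes are known targets of ATF4, the transcription factor that cells induce when amino acids are short or the endoplasmic reticulum is stressed.

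POM121 itself was lower in every siPOM121 library. In 22Rv1DR it stood at 7.68, 7.81, 6.73 and 7.43 FPKM in libraries 4B, 5B, 4C and 5C, against 38.5 and 37.8 FPKM in controls 4A and 5A. In DU145DR it stood at 13.4, 13.5, 12.5 and 13.2 FPKM in 1B, 2B, 1C and 2C, against 21.6 and 21.3 FPKM in controls 1A and 2A. The log2 fold change was -2.37 ± 0.05 (SE) in 22Rv1DR and -0.71 ± 0.05 in DU145DR, with adjusted p = 9.48e-09 and 5.66e-05 (limma, Benjamini-Hochberg over all symbols tested, as everywhere below). The lines carried their own markers: HOXB13, a prostate transcription factor, was at 36.3 and 38.7 FPKM in 22Rv1DR controls and was listed at 0 in every DU145DR library, while VIM, an intermediate filament protein, was listed at 0 in every 22Rv1DR library and was at 569 and 553 FPKM in DU145DR controls. PTPRC, PECAM1, COL1A2 and COL3A1, markers of blood, endothelial and connective tissue cells, were listed at 0 in all 12 libraries. The other 3 markers of that list were above the floor: COL1A1 rose in DU145DR by 1.19 ± 0.08 (2.93, 2.41, 2.18 and 2.26 FPKM in 1B, 2B, 1C and 2C, against 1.04 and 1.09 FPKM in controls), as did ACTA2 by 0.56 ± 0.14, while CD68 fell in DU145DR by 0.29 ± 0.08 and rose in 22Rv1DR by 0.40 ± 0.08. Their part in the results below was not tested. Libraries 4C and 5C both stand apart, in opposite directions. Ribosomal protein transcripts took 18.5% of the summed FPKM in 4C and 12.1% in 5C, against 15.0% to 16.96% in the other 22Rv1DR libraries. The median shift over all symbols tested against the controls was -0.07 in 4C and 0.00 in 5C on the log2 scale. Values without 4C are given for the synthetases whose 22Rv1DR effect this library moved by over 1.5 times and for several others. Values without 5C are not listed gene by gene, which does not make 5C the sounder library. In bulk RNA a lower level can mean fewer cells of a type or less RNA per cell, and these cannot be told apart.

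In control cells the levels of the synthetases differed widely between the 2 lines. Mitochondrial synthetase transcripts were mostly higher in 22Rv1DR, and cytosolic ones mostly lower. Of the 16 mitochondrial members 11 were higher and 1 was lower in 22Rv1DR than in DU145DR controls, with a median log2 fold change of 0.59. Of the 20 cytosolic members 3 were higher and 13 were lower, with a median of -0.23. The background is high here, since 83% of all symbols tested differed between the lines, 40.3% higher and 42.7% lower in 22Rv1DR, and the median over all of them was -0.02. The geometric mean level of the cytosolic members was between 3.38 and 3.59 times that of the mitochondrial members in the 22Rv1DR libraries, against 7.20 to 7.64 times in the DU145DR libraries.

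**Figure D1:**
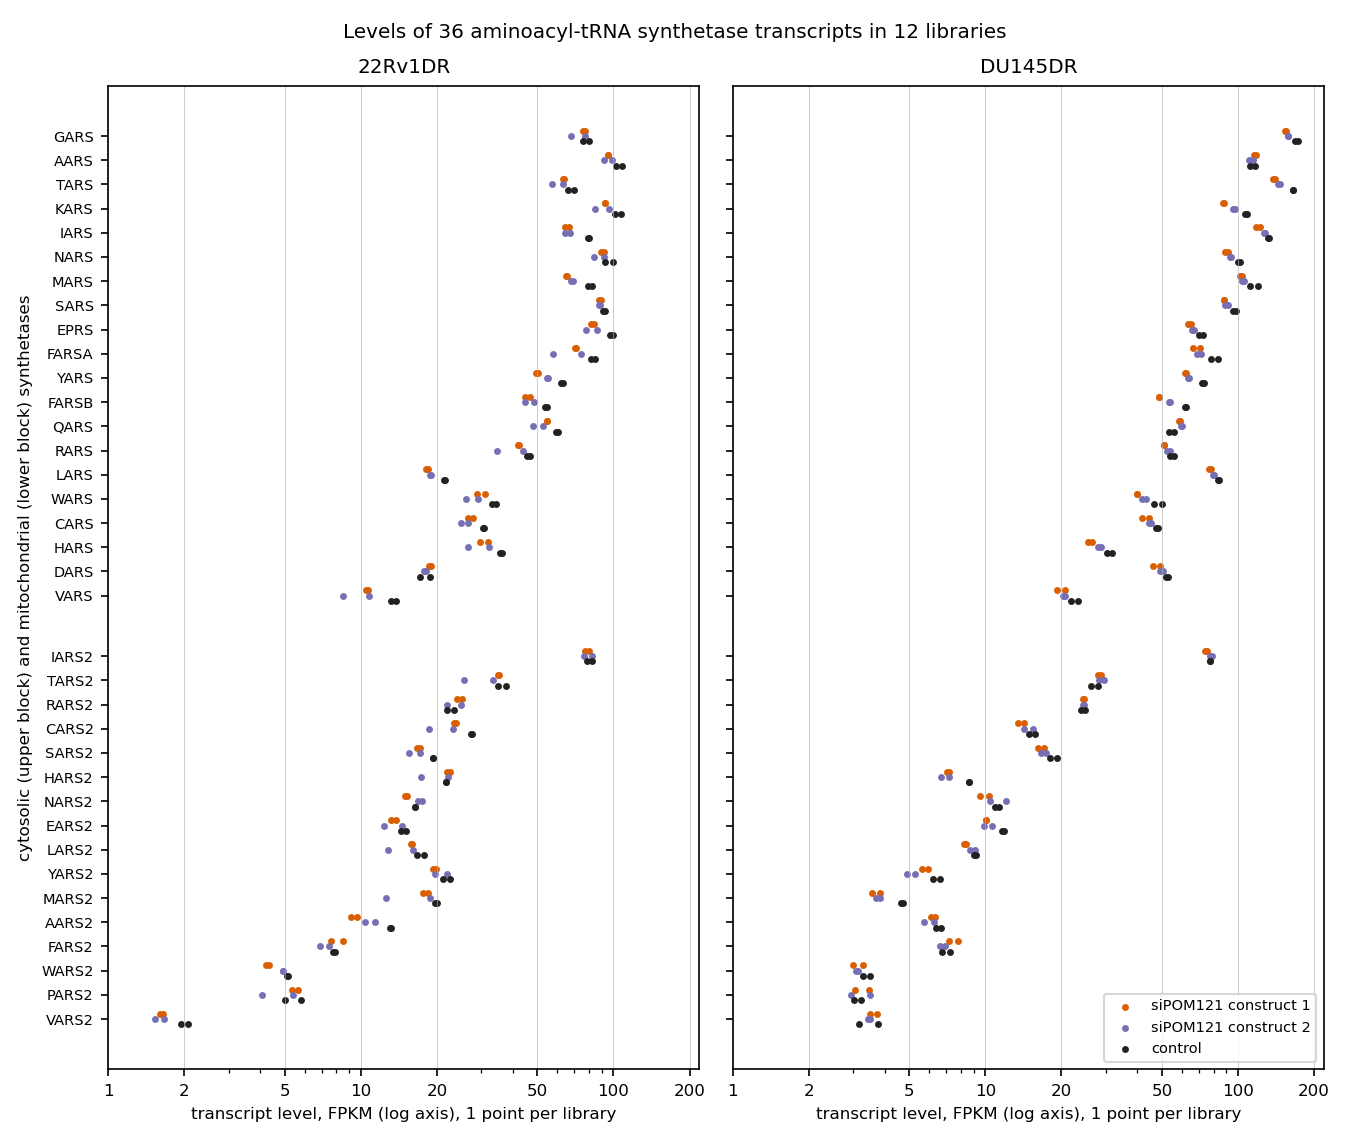
Level of each of the 36 synthetase transcripts in FPKM (log axis), 1 point per library, in 22Rv1DR (left) and DU145DR (right), with siPOM121 construct 1 in orange, construct 2 in violet and control in black. Cytosolic enzymes are in the upper block and mitochondrial ones in the lower block. IARS2 has the highest level of the mitochondrial transcripts, at 80.2 FPKM in 22Rv1DR and 77.5 FPKM in DU145DR controls, and the ranges of both classes overlap in both lines.

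The order of the levels also differed between the lines. AARS, KARS and EPRS, the enzymes for alanine, for lysine and for glutamate with proline, led in 22Rv1DR controls at 105, 104 and 97.9 FPKM. GARS, TARS and IARS, the enzymes for glycine, threonine and isoleucine, led in DU145DR controls at 170, 166 and 132 FPKM. In 22Rv1DR AARS and KARS do not differ beyond their spread, since their control libraries overlap (102 and 108 FPKM for AARS, 101 and 107 FPKM for KARS). GARS and TARS in DU145DR lie close together without overlap (168 and 173 FPKM for GARS, 166 and 166 FPKM for TARS). At the low end stood VARS2, the mitochondrial valine enzyme, at 2.00 FPKM in 22Rv1DR controls, and PARS2, the mitochondrial proline enzyme, at 3.12 FPKM in DU145DR controls. These levels lie close to the floor of 1 FPKM, below which the table lists 0. No member was at 0 in any sample.

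The largest differences between the lines came from single enzymes. LARS, the cytosolic leucine enzyme, was at 21.6 and 21.4 FPKM in 22Rv1DR controls against 83.5 and 84.3 FPKM in DU145DR controls, a log2 fold change of -1.96 ± 0.04 (adjusted p = 3.49e-11). DARS, the aspartate enzyme, differed by -1.54 ± 0.05, TARS by -1.28 ± 0.05 and GARS by -1.13 ± 0.06. In the other direction MARS2, the mitochondrial methionine enzyme, was at 19.6 and 19.9 FPKM in 22Rv1DR controls against 4.74 and 4.62 FPKM in DU145DR controls, a difference of 2.08 ± 0.14 (adjusted p = 4.19e-07). YARS2 and HARS2, the mitochondrial tyrosine and histidine enzymes, differed by 1.77 ± 0.07 and 1.33 ± 0.10, and AARS2, the mitochondrial alanine enzyme, by 1.01 ± 0.06. None of these 8 pairs of control groups overlapped. LARS2, CARS2, PARS2, WARS2, NARS2, TARS2 and EARS2 were also higher in 22Rv1DR, by 0.34 to 0.92. VARS2 ran the other way from the other mitochondrial members called, at -0.79 ± 0.09, and EPRS, at 0.46 ± 0.05, HARS and QARS ran the other way from the other cytosolic members called. The calls of AARS, HARS, QARS and RARS between the lines were small (log2 values of -0.12, 0.21, 0.13 and -0.24) and were each lost when 1 of several libraries was left out: adjusted p reached 0.21 for AARS without 4A, 0.152 for HARS without 2A, 0.197 for QARS without 2A and 0.114 for RARS without 2A.

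The start regions of 30 of the 36 genes could be read from RefSeq (build GRCh38.p14, 250 bases before to 50 after each annotated start). DARS, LARS, VARS, YARS, AARS2 and VARS2 had no entry. The letters TGATGNAA, the C/EBP-ATF response element to which ATF4 is known to bind, were searched on both strands. At least 1 match lay in a window of 7 of the 16 cytosolic genes (43.8%) and of 1 of the 14 mitochondrial genes (7.14%), against 4.46% of all 27305 genes with a window and 3.62% of all 35116 windows. The stretches around the matches are shown because they mark which family members carry the element. They are 44 bases long, or 34 for NARS, read 5′ to 3′ on the strand of the gene, with the match in capitals, and 6 of the 8 matches are the reverse complement of the letters.
AARS, chr16:70289668-70289711, minus strand: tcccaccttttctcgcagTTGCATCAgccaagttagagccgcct
CARS, chr11:3057400-3057443, minus strand: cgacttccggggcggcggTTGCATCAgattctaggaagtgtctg
GARS, chr7:30594827-30594870, plus strand: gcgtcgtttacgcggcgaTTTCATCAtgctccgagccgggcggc
IARS, chr9:92293685-92293728, minus strand: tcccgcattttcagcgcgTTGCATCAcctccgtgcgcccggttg
MARS, chr12:57488046-57488089, plus strand: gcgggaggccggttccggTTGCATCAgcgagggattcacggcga
NARS, chr18:57621807-57621840, minus strand: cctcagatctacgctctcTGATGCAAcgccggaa
TARS, chr5:33440949-33440992, plus strand: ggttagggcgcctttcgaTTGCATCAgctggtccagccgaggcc
YARS2, chr12:32756069-32756112, minus strand: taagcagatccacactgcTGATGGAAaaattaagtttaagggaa

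In CARS, IARS, MARS, NARS and TARS the match began within 15 bases of the annotated start, at -2, -13, -4, 15 and 3, and in GARS it began at -33. In AARS and YARS2 it began further upstream, at -187 and -197. A match is only a string of letters, and no binding was measured here. Between the control lines, 6 of the 7 cytosolic genes with the element were lower in 22Rv1DR and 0 were higher (median log2 fold change -0.64). Of the 9 cytosolic genes with a window but no match 3 were lower and 3 were higher (median -0.05). Among all symbols tested 42.7% were lower and 40.3% higher. LARS, DARS, VARS and YARS, which had no window, are in neither set and were all lower in 22Rv1DR (-1.96, -1.54, -0.75 and -0.22). After siPOM121 the 7 genes with the element had a median log2 fold change of -0.14 in 22Rv1DR (5 lower) and -0.13 in DU145DR (2 lower). The 9 without it had medians of -0.23 (7 lower) and -0.19 (4 lower), where 20.4% and 9.37% of all symbols tested were called lower. The E-box CACGTG, the letters bound by MYC and related factors, was in a window of 1 of the 16 cytosolic genes (6.25%) and 3 of the 14 mitochondrial genes (21.4%), against 8.77% of all genes with a window. Those 4 genes were IARS, CARS2, EARS2 and MARS2.

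**Figure D2:**
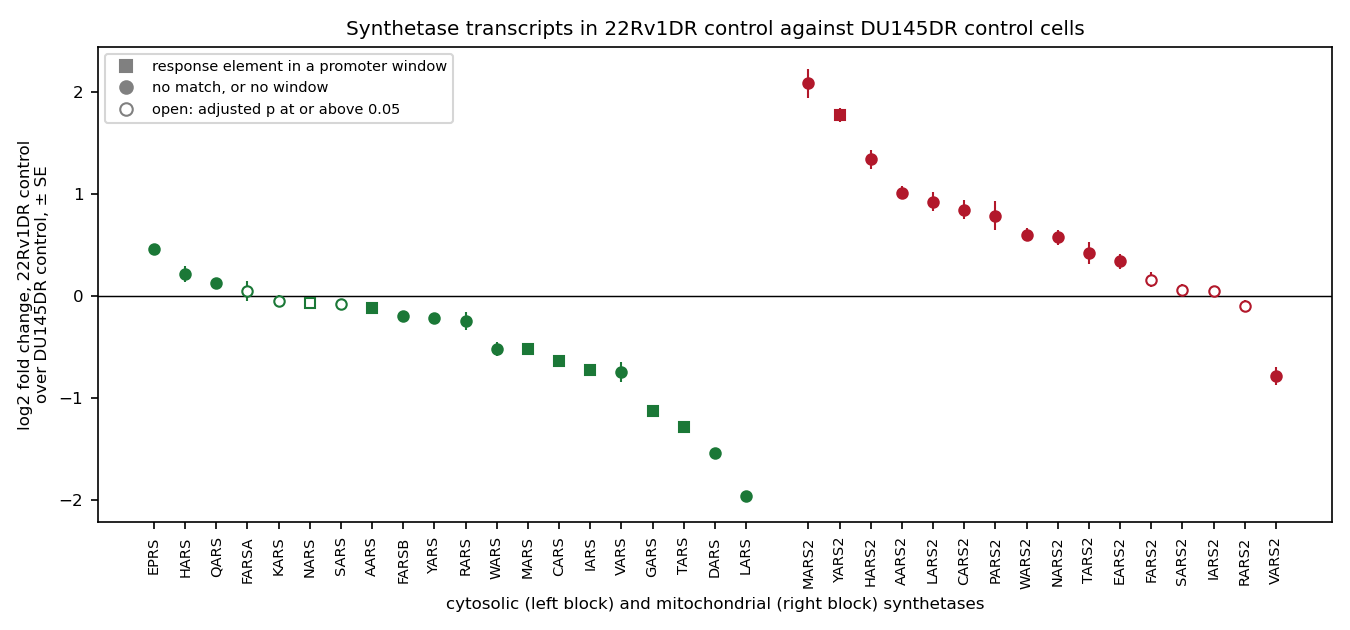
Log2 fold change of each synthetase transcript in 22Rv1DR control over DU145DR control cells, with the moderated SE, for cytosolic members (green, left) and mitochondrial members (red, right); squares mark genes with the C/EBP-ATF response element in a start window and open symbols an adjusted p at or above 0.05. Values run from -1.96 for LARS to 2.08 for MARS2.

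After siPOM121 some synthetase transcripts fell in each line and none passed the test as higher; cytosolic and mitochondrial members were not tested against each other. In 22Rv1DR 20 of the 36 members fell and 0 rose, by limma's adjusted p under 0.05. These 20 were 15 of the 20 cytosolic and 5 of the 16 mitochondrial members. Of all symbols tested 20.4% were called lower in 22Rv1DR and 15.2% higher. The median log2 fold change of the 36 members was -0.19, against -0.02 over all symbols tested. After quantile normalization the members' median was -0.13, against 0.00 over all symbols tested. Without 4C the members' median was -0.13, and without 5C it was -0.23. In DU145DR 9 members fell, 0 rose and 27 did not pass. The 9 were 7 cytosolic and 2 mitochondrial members, where 9.37% of all symbols tested were called lower and 14.5% higher. The median of the members there was -0.12, against 0.00 over all symbols tested, and the members' median stayed at -0.12 after quantile normalization. All 4 siPOM121 libraries lay below both controls for 25 members in 22Rv1DR (18 of 20 cytosolic, 7 of 16 mitochondrial), where 27.3% of all symbols tested did so. The same was true of 23 members in DU145DR (17 cytosolic, 6 mitochondrial), where the share of all symbols was 22%. All 4 lay above both controls for 0 members in 22Rv1DR and for 2, QARS and TARS2, in DU145DR, where 18% and 27.2% of all symbols did so.

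These counts lean on single libraries, although the direction of the members called did not. The share of all symbols called fell and rose along with them in these runs, so the shifts are not particular to the synthetases. In 22Rv1DR 12 members were called lower without control 4A and 8 without control 5A. In DU145DR 2 were called lower without control 1A, 4 without control 2A and 5 without 2B or without 1C. The spread is shared across all groups, so libraries of 22Rv1DR bear on the DU145DR count: without 4C or without 5C, 21 members were called lower in DU145DR, and QARS was called higher. Without 4C, 21 members were called lower and RARS2 higher in 22Rv1DR, and the median shift of the cytosolic members against their controls was -0.29 in 4C and -0.16 to -0.19 in 4B, 5B and 5C. For mitochondrial members the shift was -0.32 in 4C and -0.06 to -0.15 in the other 3 libraries. What sets 4C and 5C apart was not tested, and their part in these results was looked at only by leaving them out.

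**Figure D3:**
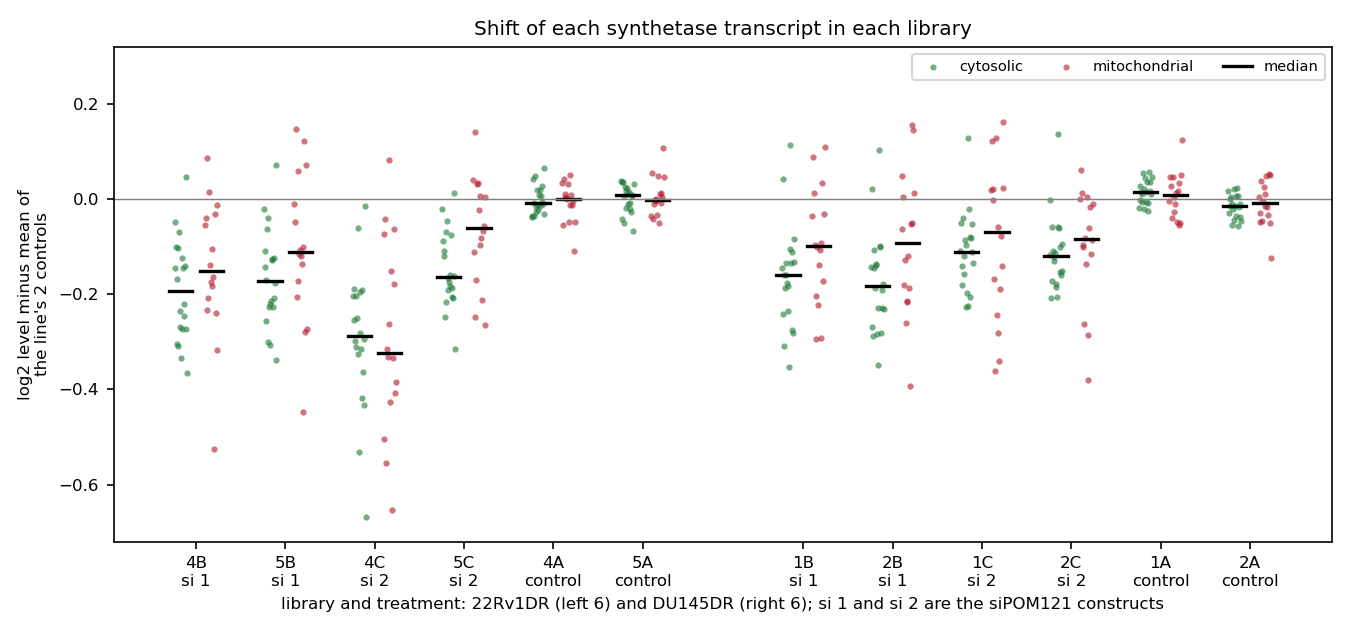
Log2 level of each member in each library minus the mean of its line's 2 controls, with 1 point per transcript (cytosolic green, mitochondrial red) and the median as a bar, for 22Rv1DR (left 6 libraries) and DU145DR (right 6). Every siPOM121 library has its cytosolic median below 0, from -0.11 in 1C to -0.29 in 4C.

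The 6 members that fell in both lines were all cytosolic: FARSB, KARS, MARS, TARS, WARS and YARS. They are 6 of the 20 called lower in 22Rv1DR and 6 of the 9 called lower in DU145DR. Among all symbols tested 4.23% were called lower in both lines. Across the 36 members the 2 lines' log2 fold changes correlated weakly, with Pearson's r = 0.23 and Spearman's rho = 0.25, close to the values across all 13622 symbols (r = 0.23, rho = 0.28). Genes are not independent replicates, so these are descriptions only.

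**Figure D4:**
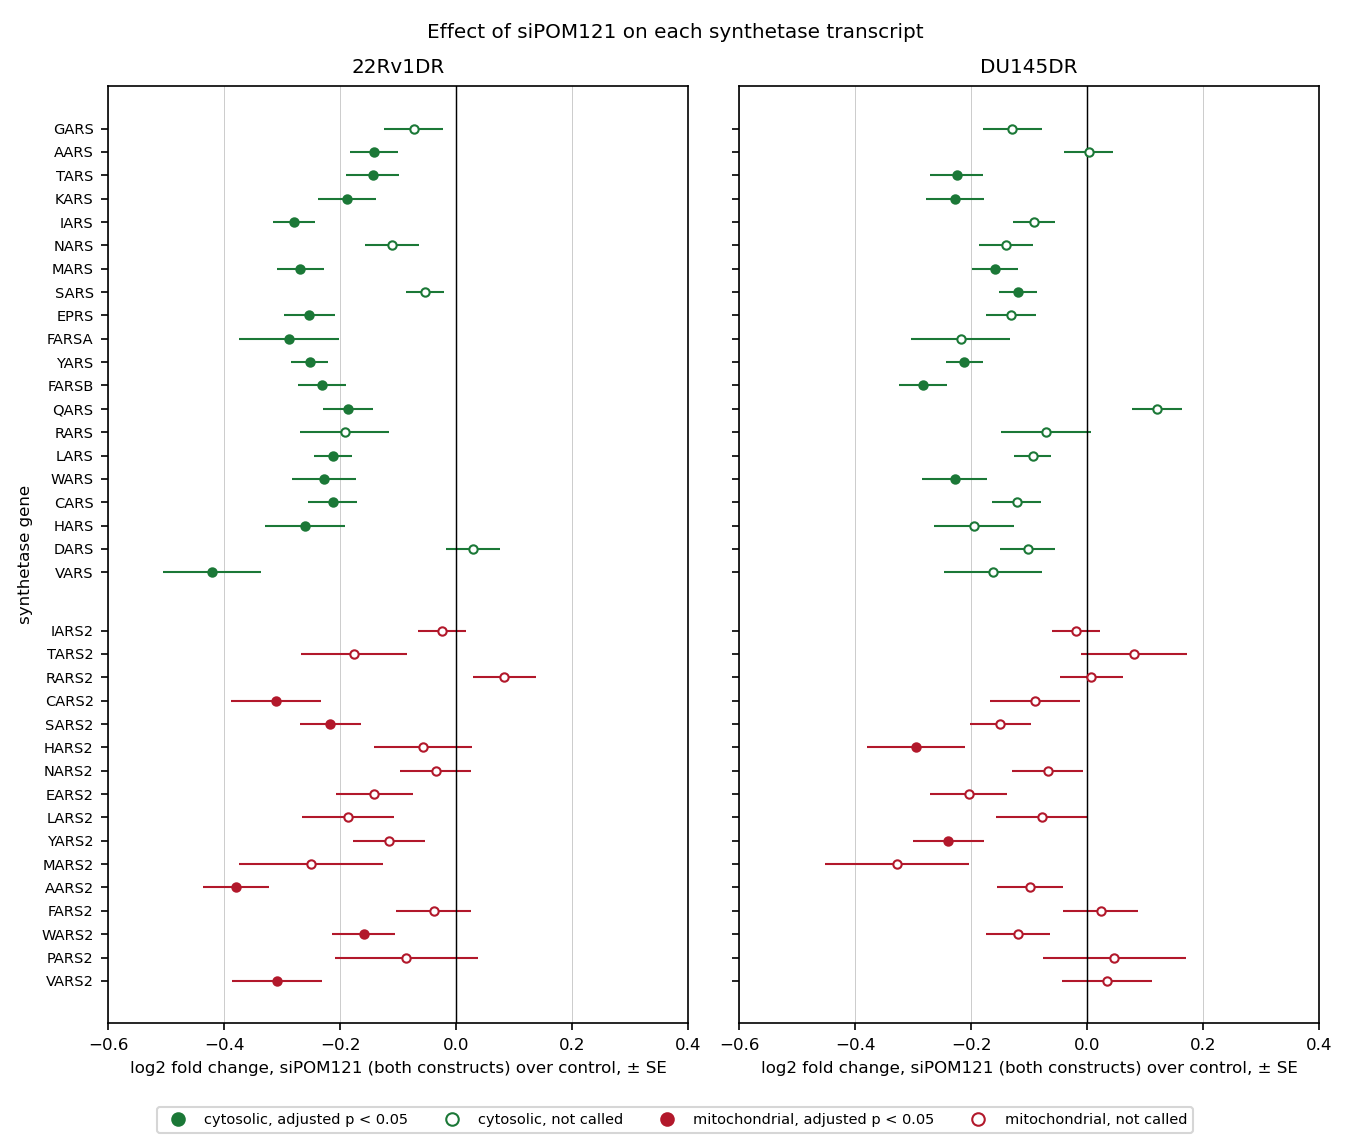
Log2 fold change of each synthetase transcript after siPOM121 (mean of both constructs) over control with its moderated SE, in 22Rv1DR (left) and DU145DR (right); filled symbols have an adjusted p under 0.05, green is cytosolic and red mitochondrial. The 22Rv1DR values run from -0.42 for VARS to 0.08 for RARS2, and the DU145DR values from -0.33 for MARS2 to 0.12 for QARS.

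FARSB and FARSA encode the beta and alpha subunits of the cytosolic phenylalanine enzyme, which works as a tetramer of both. FARSB was at 44.7, 46.6, 44.5 and 48.4 FPKM in 22Rv1DR libraries 4B, 5B, 4C and 5C, against 54.4 and 53.7 FPKM in controls. DU145DR levels of FARSB were 48.6, 48.7, 53.1 and 53.8 FPKM in 1B, 2B, 1C and 2C, against 61.8 and 62.3 FPKM in controls. Both lines show a clear gap between siPOM121 and control libraries. FARSB fell by 0.23 ± 0.04 on the log2 scale in 22Rv1DR (adjusted p = 0.00265) and by 0.28 ± 0.04 in DU145DR (adjusted p = 0.00148). Its partner FARSA was at 70.7, 71.4, 57.5 and 74.2 FPKM in 4B, 5B, 4C and 5C, against 81.8 and 84.5 FPKM in controls, with 4C the lowest. In DU145DR FARSA was at 71.0, 66.2, 68.8 and 71.1 FPKM in 1B, 2B, 1C and 2C, against 83.1 and 78.1 FPKM in controls. The siPOM121 libraries lie below the controls in both lines. FARSA passed the test in 22Rv1DR (log2 fold change -0.29 ± 0.09, adjusted p = 0.0272; -0.20 without 4C) but not in DU145DR (-0.22 ± 0.09, adjusted p = 0.0984). The 22Rv1DR call was lost without 4A, 5A, 4B or 5B (adjusted p between 0.0621 and 0.162). The ratio of FARSA to FARSB was 1.29 in 4C and between 1.51 and 1.58 in the other 22Rv1DR libraries. In DU145DR the ratio ran from 1.25 to 1.46.

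YARS and WARS, the cytosolic tyrosine and tryptophan enzymes, also fell in both lines. YARS was at 49.5, 50.4, 54.5 and 55.3 FPKM in 4B, 5B, 4C and 5C, against 61.9 and 62.9 FPKM in 22Rv1DR controls. DU145DR levels of YARS were 61.8, 62.1, 63.4 and 63.9 FPKM in 1B, 2B, 1C and 2C, against 73.4 and 71.97 FPKM in controls. No siPOM121 library overlapped a control in either line. The log2 fold change was -0.25 ± 0.03 in 22Rv1DR (adjusted p = 0.00047) and -0.21 ± 0.03 in DU145DR (adjusted p = 0.00173). Both calls remained with each library left out in turn. WARS, also known as an interferon-induced transcript, was at 28.9, 30.9, 26.2 and 29.2 FPKM in 4B, 5B, 4C and 5C, against 34.3 and 33.0 FPKM in 22Rv1DR controls. DU145DR levels of WARS were 39.9, 39.7, 41.9 and 43.4 FPKM in 1B, 2B, 1C and 2C, against 50.2 and 46.4 FPKM in controls. WARS fell by 0.23 ± 0.06 in 22Rv1DR (adjusted p = 0.0123) and by 0.23 ± 0.06 in DU145DR (adjusted p = 0.0171). Its 22Rv1DR call was lost without 4A (adjusted p = 0.0974) or 5A (0.0525), and its DU145DR call without 1A (0.169) or 1C (0.0513). In GENCODE v29, 11% of the WARS exon bases are covered by exons of genes on the other strand, among them WDR25, and the library type did not keep the strand. For YARS the share is 7.66%, from exons of S100PBP.

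KARS and TARS, the lysine and threonine enzymes, were called lower in both lines as well. KARS was at 92.6, 92.5, 84.6 and 95.8 FPKM in 4B, 5B, 4C and 5C, against 101 and 107 FPKM in 22Rv1DR controls. DU145DR levels of KARS were 86.9, 88.2, 97.6 and 95.4 FPKM in 1B, 2B, 1C and 2C, against 109 and 106 FPKM in controls. The construct 1 libraries are the lowest in DU145DR and 4C is the lowest in 22Rv1DR. KARS had a log2 fold change of -0.19 ± 0.05 in 22Rv1DR (adjusted p = 0.0171) and -0.23 ± 0.05 in DU145DR (adjusted p = 0.0105). It lost its call in 22Rv1DR without 5A (adjusted p = 0.15) and in DU145DR without 1A (0.0899) or 2A (0.0602). TARS was at 63.4, 63.1, 57.1 and 63.1 FPKM in 4B, 5B, 4C and 5C, against 70.1 and 66.1 FPKM in 22Rv1DR controls. In DU145DR TARS was at 140, 138, 146 and 143 FPKM in 1B, 2B, 1C and 2C, against 166 and 166 FPKM in controls. The groups do not overlap in either line. TARS fell by 0.14 ± 0.05 in 22Rv1DR (adjusted p = 0.0352) and by 0.22 ± 0.05 in DU145DR (adjusted p = 0.00713). The 22Rv1DR call is marginal: it was lost when any library but 4C or 5C was left out (adjusted p between 0.0537 and 0.253). In DU145DR the call was lost without 1A (0.0563) or 2A (0.058).

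GARS, which makes the glycine enzyme of both compartments, did not pass the test in either line. GARS was at 75.4, 76.9, 67.7 and 76.9 FPKM in 4B, 5B, 4C and 5C, against 76.0 and 80.1 FPKM in 22Rv1DR controls, where the groups overlap. DU145DR levels of GARS were 154, 154, 158 and 157 FPKM in 1B, 2B, 1C and 2C, against 168 and 173 FPKM in controls, where they do not. The log2 fold change was -0.07 ± 0.05 in 22Rv1DR (adjusted p = 0.304; -0.03 without 4C) and -0.13 ± 0.05 in DU145DR (adjusted p = 0.0999).

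Of the 8 members of the multisynthetase complex 6 fell in 22Rv1DR and 2 in DU145DR, where 20.4% and 9.37% of all symbols tested were called lower. Their median log2 fold changes were -0.20 and -0.10, against -0.02 and 0.00 over all symbols tested. MARS, the methionine enzyme, was at 64.9, 65.2, 67.6 and 69.2 FPKM in 4B, 5B, 4C and 5C, against 78.9 and 81.9 FPKM in 22Rv1DR controls. DU145DR levels of MARS were 103, 101, 103 and 106 FPKM in 1B, 2B, 1C and 2C, against 120 and 111 FPKM in controls. The gap between groups is wide in 22Rv1DR and narrower in DU145DR. MARS fell by 0.27 ± 0.04 in 22Rv1DR (adjusted p = 0.00108) and by 0.16 ± 0.04 in DU145DR (adjusted p = 0.0193). The DU145DR call was lost without 1A (log2 fold change -0.10, adjusted p = 0.197), 2B (0.0547) or 1C (0.0565). MARS and DDIT3 lie on opposite strands and share 2.13% of the MARS exon bases in GENCODE v29. EPRS, which charges both glutamate and proline tRNAs, was at 81.2, 83.6, 78.2 and 85.8 FPKM in 4B, 5B, 4C and 5C, against 99.2 and 96.6 FPKM in 22Rv1DR controls. DU145DR levels of EPRS were 63.2, 64.9, 66.8 and 66.0 FPKM in 1B, 2B, 1C and 2C, against 70.4 and 72.4 FPKM in controls. The groups are apart in both lines. EPRS fell in 22Rv1DR, by 0.25 ± 0.04 (adjusted p = 0.00225), and was at -0.13 ± 0.04 in DU145DR (adjusted p = 0.0574). LARS also fell in 22Rv1DR, by 0.21 ± 0.03, and was at -0.09 ± 0.03 in DU145DR (adjusted p = 0.0652). RARS and DARS did not pass the test in either line: their log2 values were -0.19 and 0.03 in 22Rv1DR, and -0.07 and -0.10 in DU145DR. Without 4C the 22Rv1DR value of RARS was smaller, at -0.11, and passed the test (adjusted p = 0.0168). Of the 3 scaffold proteins AIMP1 fell in both lines, by 0.21 ± 0.06 in 22Rv1DR and 0.26 ± 0.06 in DU145DR. In 22Rv1DR AIMP1 was at 31.5 and 31.6 FPKM with construct 1 but at 42.4 and 36.9 FPKM with construct 2, against 42.3 and 39.4 FPKM in controls. AIMP2 did not pass the test in either line, and EEF1E1, which was listed at 0 in every DU145DR library, did not in 22Rv1DR.

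Among the remaining cytosolic enzymes VARS, CARS and AARS fell in 22Rv1DR and SARS fell in DU145DR, and the difference between the lines did not pass for any of them. VARS, the valine enzyme, had the lowest value among cytosolic members: it was at 10.4, 10.6, 8.46 and 10.8 FPKM in 4B, 5B, 4C and 5C, against 13.1 and 13.7 FPKM in 22Rv1DR controls. In DU145DR VARS was at 20.6, 19.3, 20.6 and 20.4 FPKM in 1B, 2B, 1C and 2C, against 23.3 and 21.9 FPKM in controls. Library 4C is the lowest, and no siPOM121 library reaches a control in either line. VARS had a log2 fold change of -0.42 ± 0.08 in 22Rv1DR (adjusted p = 0.0048; -0.33 without 4C) and -0.16 ± 0.08 in DU145DR (adjusted p = 0.207). Without 5A the 22Rv1DR call was lost (adjusted p = 0.0532). VARS fills 7 lines of the table and VARS2 6, of which the line with the highest mean was used. Over those lines the 22Rv1DR value ran from -0.42 to -0.31 for VARS and from -0.31 to -0.27 for VARS2, and whether reads were split among the lines was not tested. CARS and AARS, the cysteine and alanine enzymes, fell by 0.21 ± 0.04 and 0.14 ± 0.04 in 22Rv1DR, and were at -0.12 ± 0.04 and 0.00 ± 0.04 in DU145DR. The AARS call was lost without 4A, 5A, 4B or 5B (adjusted p between 0.0517 and 0.216). SARS, the serine enzyme, passed the test in DU145DR, where it fell by 0.12 ± 0.03 (adjusted p = 0.0291), and was at -0.05 ± 0.03 in 22Rv1DR. Its difference between the lines did not pass (adjusted p = 0.335), and its call was lost without any 1 of 8 libraries (1A, 2A, 1B, 2B, 1C, 2C, 4B or 5B; adjusted p between 0.0505 and 0.203). NARS, the asparagine enzyme, was at -0.11 ± 0.05 in 22Rv1DR and -0.14 ± 0.05 in DU145DR and passed in neither.

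HARS and HARS2 charge histidine tRNAs in the cytosol and in the mitochondrion, and they are neighbours transcribed away from each other. Their annotated starts are 84 bases apart on chromosome 5, and the stretch between them, shown because both transcripts begin at its edges, reads as follows on the HARS2 strand.
chr5:140691371-140691454, plus strand: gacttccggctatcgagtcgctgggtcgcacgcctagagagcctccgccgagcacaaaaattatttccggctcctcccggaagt

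HARS was at 29.7, 31.8, 26.6 and 32.1 FPKM in 4B, 5B, 4C and 5C, against 35.7 and 36.2 FPKM in 22Rv1DR controls. DU145DR levels of HARS were 25.6, 26.5, 28.7 and 27.8 FPKM in 1B, 2B, 1C and 2C, against 31.8 and 30.3 FPKM in controls. Every siPOM121 library lies below the controls. HARS fell by 0.26 ± 0.07 in 22Rv1DR (adjusted p = 0.0172; -0.19 without 4C) and was at -0.19 ± 0.07 in DU145DR (adjusted p = 0.0715). Its 22Rv1DR call was lost without 4A (0.0831), 5A (0.109) or 4B (0.0544). HARS2 was at 21.9, 22.6, 17.2 and 22.2 FPKM in 4B, 5B, 4C and 5C, against 21.8 and 21.6 FPKM in 22Rv1DR controls, so that 4C alone is low. In DU145DR HARS2 was at 7.02, 7.19, 6.70 and 7.18 FPKM in 1B, 2B, 1C and 2C, against 8.63 and 8.58 FPKM in controls, with no overlap. HARS2 fell in DU145DR by 0.29 ± 0.08 (adjusted p = 0.0334) and was at -0.06 ± 0.08 in 22Rv1DR (adjusted p = 0.678; 0.03 without 4C). The DU145DR call was lost when any 1 of 10 libraries was left out, all but 4C and 5C (adjusted p between 0.0519 and 0.162). It was also the member whose 2 lanes differed most, by up to 0.503 on the log2 scale, and the difference between the lines did not pass (0.24 ± 0.12, adjusted p = 0.175). Exons of HARS on the other strand cover 14.2% of the HARS2 exon bases in GENCODE v29.

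Of the 16 mitochondrial enzymes 5 fell in 22Rv1DR and 2 in DU145DR, where 20.4% and 9.37% of all symbols tested were called lower. The enzymes that fell were AARS2, CARS2, SARS2, VARS2 and WARS2 in 22Rv1DR, and HARS2 and YARS2 in DU145DR. AARS2, the mitochondrial alanine enzyme, was at 9.12, 9.63, 10.4 and 11.3 FPKM in 4B, 5B, 4C and 5C, against 13.2 and 13.1 FPKM in 22Rv1DR controls. DU145DR levels of AARS2 were 6.11, 6.29, 5.72 and 6.25 FPKM in 1B, 2B, 1C and 2C, against 6.67 and 6.37 FPKM in controls. The gap is large in 22Rv1DR, with construct 1 lowest, and small in DU145DR. Exons of genes on the other strand cover 6.1% of the AARS2 exon bases in GENCODE v29. AARS2 fell by 0.38 ± 0.06 in 22Rv1DR (adjusted p = 0.00108; -0.35 without 4C), a call that remained with each library left out, and was at -0.10 ± 0.06 in DU145DR (adjusted p = 0.249). CARS2, the cysteine enzyme, was at 23.3, 23.8, 18.7 and 23.1 FPKM in 4B, 5B, 4C and 5C, against 27.6 and 27.2 FPKM in 22Rv1DR controls. DU145DR levels of CARS2 were 14.3, 13.5, 15.5 and 14.2 FPKM in 1B, 2B, 1C and 2C, against 14.9 and 15.7 FPKM in controls, where the groups overlap. CARS2 fell by 0.31 ± 0.08 in 22Rv1DR (adjusted p = 0.0137; -0.23 without 4C), a call lost without 4A (0.0872) or 5A (0.0785).

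SARS2, the mitochondrial serine enzyme, was at 16.7, 17.1, 15.5 and 17.2 FPKM in 4B, 5B, 4C and 5C, against 19.3 and 19.3 FPKM in 22Rv1DR controls. DU145DR levels of SARS2 were 16.2, 17.03, 16.6 and 17.4 FPKM in 1B, 2B, 1C and 2C, against 19.2 and 18.0 FPKM in controls. Neither line shows overlap. SARS2 fell by 0.22 ± 0.05 in 22Rv1DR (adjusted p = 0.012), a call lost without 4A (0.0721) or 5A (0.0748), and was at -0.15 ± 0.05 in DU145DR (adjusted p = 0.0707). In GENCODE v29, 67.4% of its exon bases are shared with a gene on the same strand and 15.8% with one on the other strand (AC011455.2 and MRPS12 are the genes concerned), so its level is uncertain. VARS2, the mitochondrial valine enzyme, was at 1.61, 1.66, 1.53 and 1.67 FPKM in 4B, 5B, 4C and 5C, against 1.94 and 2.07 FPKM in 22Rv1DR controls. DU145DR levels of VARS2 were 3.72, 3.48, 3.51 and 3.42 FPKM in 1B, 2B, 1C and 2C, between the controls at 3.76 and 3.16 FPKM. VARS2 fell by 0.31 ± 0.08 in 22Rv1DR (adjusted p = 0.0135), a call lost without 5A (0.118), and was at 0.03 ± 0.08 in DU145DR (adjusted p = 0.873). WARS2, the tryptophan enzyme, fell by 0.16 ± 0.05 in 22Rv1DR with adjusted p = 0.0478, a call lost without any of 1A, 2A, 1C, 2C, 4A, 5A, 4B or 5B (adjusted p between 0.0532 and 0.186).

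YARS2, the mitochondrial tyrosine enzyme, fell in DU145DR. It was at 19.2, 19.8, 19.6 and 21.9 FPKM in 4B, 5B, 4C and 5C, against 22.6 and 21.1 FPKM in 22Rv1DR controls, where 5C overlaps the controls. DU145DR levels of YARS2 were 5.93, 5.61, 5.26 and 4.91 FPKM in 1B, 2B, 1C and 2C, against 6.18 and 6.61 FPKM in controls, with no overlap. The log2 fold change was -0.24 ± 0.06 in DU145DR (adjusted p = 0.0221) and -0.12 ± 0.06 in 22Rv1DR (adjusted p = 0.181; -0.08 without 4C). The DU145DR call was lost without 1A (0.0585), 2A (0.18), 2B (0.0633) or 2C (0.0618). MARS2 had the lowest DU145DR value of all members but did not pass: it was at -0.33 ± 0.12 in DU145DR (adjusted p = 0.0901) and -0.25 ± 0.12 in 22Rv1DR (adjusted p = 0.154; -0.11 without 4C). DU145DR levels of MARS2 were 3.82, 3.56, 3.70 and 3.84 FPKM in 1B, 2B, 1C and 2C, against 4.74 and 4.62 FPKM in controls, with no overlap. In 22Rv1DR MARS2 was at 17.7, 18.4, 12.6 and 18.7 FPKM in 4B, 5B, 4C and 5C, against 19.6 and 19.9 FPKM in controls. Its SE draws on the spread of all groups, which was widest between 4C and 5C (SD 0.41). EARS2, which charges glutamate and also glutamine tRNAs in mitochondria, was at -0.14 ± 0.07 in 22Rv1DR and -0.20 ± 0.07 in DU145DR (adjusted p = 0.13 and 0.0525), and at -0.08 in 22Rv1DR without 4C. IARS2, the most abundant mitochondrial member, was at -0.02 ± 0.04 in 22Rv1DR and -0.02 ± 0.04 in DU145DR. RARS2, FARS2, LARS2, NARS2, PARS2 and TARS2 did not pass in either line, with log2 values between -0.19 and 0.08 in 22Rv1DR and between -0.08 and 0.08 in DU145DR. Without 4C the 22Rv1DR value was -0.10 for LARS2, -0.08 for TARS2, -0.01 for FARS2 and 0.02 for PARS2, against -0.19, -0.18, -0.04 and -0.09 with it. For IARS2 it was 0.00, and for RARS2 0.13, which then passed the test (adjusted p = 0.0216).

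The effect of siPOM121 was compared between the lines by an interaction term. POM121 itself fell further in 22Rv1DR than in DU145DR, so line and depth of knockdown cannot be told apart here. For 4 members the 22Rv1DR effect was lower than the DU145DR effect, and for 0 it was higher, where 15.9% of all symbols tested were called lower and 8.93% higher. The median difference over the 36 members was -0.06, as it was over all symbols tested. It depended on the scaling and the libraries: quantile normalization gave -0.0047 for the members and -0.0033 for all symbols, and the members' median was -0.03 without 4C or without 2A and -0.10 without 5C. Of all symbols called for this difference 36.04% were higher, and 49.2% were after quantile normalization. The share of all symbols called for it moved along with the number of members when 1 library was left out. The number of members depended on the libraries: it was 1 lower without 2A, 2B, 4A, 5A or 4B, 2 without 1A, 1B, 1C or 2C, and 13 without 5C, and without 4C 5 were lower and 2 (HARS2 and MARS2) were higher.

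QARS, the glutamine enzyme, had the smallest adjusted p of the members for the line difference. It was at 54.7, 54.6, 47.9 and 52.5 FPKM in 4B, 5B, 4C and 5C, against 59.0 and 60.2 FPKM in 22Rv1DR controls. DU145DR levels of QARS were 59.0, 58.6, 59.7 and 60.0 FPKM in 1B, 2B, 1C and 2C, against 55.9 and 53.2 FPKM in controls. All siPOM121 libraries thus lie below the controls in 22Rv1DR and above them in DU145DR. The log2 fold change was -0.19 ± 0.04 in 22Rv1DR (adjusted p = 0.00935) and 0.12 ± 0.04 in DU145DR (adjusted p = 0.0723), and the difference was -0.31 ± 0.06 (adjusted p = 0.00754). That difference passed with each library left out, and the 22Rv1DR call was lost without 5A (adjusted p = 0.0804). IARS, the isoleucine enzyme, was at 64.4, 66.7, 64.2 and 67.0 FPKM in 4B, 5B, 4C and 5C, against 79.2 and 80.0 FPKM in 22Rv1DR controls. DU145DR levels of IARS were 118, 122, 128 and 127 FPKM in 1B, 2B, 1C and 2C, against 131 and 132 FPKM in controls. The groups are apart in both lines, widely so in 22Rv1DR. IARS fell by 0.28 ± 0.04 in 22Rv1DR (adjusted p = 0.000494), a call that remained with each library left out, and was at -0.09 ± 0.04 in DU145DR (adjusted p = 0.0968), a difference of -0.19 ± 0.05 (adjusted p = 0.0251). AARS2 and VARS2, with the levels given above, differed by -0.28 ± 0.08 (adjusted p = 0.0311) and -0.34 ± 0.11 (adjusted p = 0.0482). These 3 differences were fragile: that of IARS was lost without 1A, 2A, 2B, 1C, 4A, 5A or 4B (adjusted p between 0.0547 and 0.0901). That of AARS2 was lost without 1A, 2A, 1B, 2B, 2C, 4A, 5A or 4B (between 0.0512 and 0.128), and that of VARS2 without any library but 1A, 4C or 5C (between 0.0631 and 0.197, with the difference at -0.22 without 2A).

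Each construct was also set against the control libraries, which both share. In 22Rv1DR 12 members were called lower with construct 1 and 19 with construct 2, where 15.2% and 20.6% of all symbols tested were called lower. In DU145DR the counts were 8 and 4, against 7.62% and 5.62% of all symbols. In both lines 0 members were called higher with either construct, where 12% and 14.5% of all symbols were in 22Rv1DR and 12.2% and 11% in DU145DR. Compared with each other in DU145DR, construct 2 and construct 1 differed for 0 members, where 0.022% of all symbols tested did. In 22Rv1DR YARS was higher with construct 2 than with construct 1, by 0.14 ± 0.04 (adjusted p = 0.046), where 7.3% of all symbols tested were called higher and 4.28% lower, and 0 other members differed. The scaffold AIMP1 likewise was higher with construct 2 than with construct 1 in 22Rv1DR, by 0.32 ± 0.07 (adjusted p = 0.0207).

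Other steps of the charging and translation pathway did not move as 1 group. Of 6 cytosolic elongation factors EEF1A1 (0.35 ± 0.04) and EEF1B2 (0.16 ± 0.03) rose in 22Rv1DR and 0 fell, and 0 changed in DU145DR. EEF1A1, which carries charged tRNAs to the ribosome, was at 1460, 1455, 1420 and 1466 FPKM in 4B, 5B, 4C and 5C, against 1162 and 1114 FPKM in 22Rv1DR controls. Of 9 mitochondrial translation factors 3 fell in 22Rv1DR (TUFM, MTIF2 and MRRF). In DU145DR MTIF2, the mitochondrial initiation factor (-0.35 ± 0.04), and TUFM, the elongation factor (-0.16 ± 0.04), fell and GFM2 rose. Of 16 genes of tRNA processing and export 4 fell and 1 rose in 22Rv1DR, and 4 fell and 0 rose in DU145DR, with ELAC2 (-0.36 ± 0.07 in 22Rv1DR), which trims tRNA ends, and TRNT1 (-0.27 ± 0.05 in DU145DR), which adds the CCA end, among them. Of the 4 subunits of the mitochondrial amidotransferase and the initiator formyltransferase that were measured, MTFMT fell in 22Rv1DR (-0.23 ± 0.06) and QRSL1 in DU145DR (-0.26 ± 0.07). The lower calls of either line can be read against 20.4% and 9.37% of all symbols tested.

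Several amino acid transporters fell in both lines. Of 10 on the list 6 fell and 0 rose in 22Rv1DR, and 5 fell and 1, SLC43A1, rose in DU145DR. Of all symbols tested 20.4% were called lower and 15.2% higher in 22Rv1DR, and 9.37% lower and 14.5% higher in DU145DR. SLC7A1, which carries arginine and lysine, was at 10.7, 10.8, 14.6 and 14.3 FPKM in 4B, 5B, 4C and 5C, against 18.8 and 18.5 FPKM in 22Rv1DR controls. DU145DR levels of SLC7A1 were 24.7, 24.6, 25.4 and 25.1 FPKM in 1B, 2B, 1C and 2C, against 29.5 and 28.8 FPKM in controls. Its log2 fold change was -0.58 ± 0.03 in 22Rv1DR and -0.22 ± 0.03 in DU145DR, with adjusted p = 1.47e-05 and 0.0019. SLC1A5, a glutamine carrier, fell by 0.35 ± 0.05 and 0.25 ± 0.05. SLC3A2 and SLC7A5, the 2 chains of a carrier for large neutral amino acids, fell by 0.45 ± 0.04 and 0.36 ± 0.04 in DU145DR, and in 22Rv1DR SLC7A5 fell by 0.15 ± 0.04.

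Genes of the amino acid response, many of which carry the same C/EBP-ATF element, moved in both directions. Of 16 tested, 4 rose and 2 fell in 22Rv1DR, and 1 rose and 3 fell in DU145DR, and the line difference was called higher for 6 and lower for 2. Among all symbols tested the shares were 15.2% higher and 20.4% lower in 22Rv1DR, 14.5% and 9.37% in DU145DR, and 8.93% and 15.9% for the line difference, so the 22Rv1DR counts do not stand out from them. ATF4 was at 196, 200, 230 and 200 FPKM in 4B, 5B, 4C and 5C, against 217 and 237 FPKM in 22Rv1DR controls, where 4C lies between the controls. DU145DR levels of ATF4 were 196, 195, 204 and 202 FPKM in 1B, 2B, 1C and 2C, against 240 and 233 FPKM in controls. ATF4 fell in DU145DR by 0.25 ± 0.06 (adjusted p = 0.014) and was at -0.14 ± 0.06 in 22Rv1DR (adjusted p = 0.0971). With it in DU145DR fell TRIB3, a feedback inhibitor of ATF4 (-0.49 ± 0.05), and CHAC1, which degrades glutathione (-0.57 ± 0.18). In 22Rv1DR DDIT3, the stress-induced factor CHOP, rose by 0.73 ± 0.17, and DDIT4 and SESN2, inhibitors of mTORC1 signalling, rose by 0.62 ± 0.06 and 0.46 ± 0.07. DDIT3 was at 76.6, 77.7, 163 and 93.3 FPKM in 4B, 5B, 4C and 5C, against 57.1 and 60.9 FPKM in 22Rv1DR controls, with 4C highest, and was listed at 0 in every DU145DR library. Among 14 kinases and factors of eIF2, PPP1R15A, which directs dephosphorylation of eIF2, went opposite ways: 0.47 ± 0.08 in 22Rv1DR and -0.68 ± 0.08 in DU145DR, a difference of 1.16 ± 0.12 (adjusted p = 0.00047). In this list 2 rose and 2 fell in 22Rv1DR, and 1 rose and 3 fell in DU145DR.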

How the data were processed

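RNA-seq levels of 24 samples (12 libraries on 2 lanes each) were used as deposited. The submitters' processing notes list TopHat and Cufflinks as tools and hg19 and mm10 as builds. The library kit does not keep strand, per the labels' protocols. The authors deposited log2 FPKM, with values at or under 1 FPKM listed as 0 (51.5% of values; the smallest above is 1.00 FPKM). Plain FPKM and a pseudocount had been planned for. The unit was settled from the values, so the main fit uses no pseudocount. Depth is unknown.

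The table has 27026 lines for 25277 symbols. For 605 repeated symbols the line of highest mean over all samples stood for the gene. Lanes were averaged on the log2 scale. Testing was limited to the 13622 symbols with both lanes above the floor in 2 or more libraries. limma 3.58.1 in R 4.3.3 was fitted with 1 mean per group, 6 residual degrees of freedom, and trend and robust options. Tests are 2-sided with Benjamini-Hochberg adjustment over all symbols and a threshold of 0.05. An effect of siPOM121 is the mean of both constructs minus control, and the effect in DU145DR was subtracted from that in 22Rv1DR to give the line difference. SE is moderated, and n is 2 libraries per group. Group FPKM values are geometric means. All changes are log2.

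The members and gene lists were chosen with earlier results of these data known. Members shown library by library were, per line and class, up to 4 called members with the largest change, the members called for a difference between lines or constructs, and WARS, HARS, HARS2, GARS, KARS, EPRS and POM121. MARS2 and other genes named with all their libraries were chosen after their values were seen. No stretch of 50 bases is shared between members in GENCODE v29 when all are read in the sense direction. The reverse complement was not searched. HARS and HARS2 overlap on opposite strands, over 9.49% of the HARS and 14.2% of the HARS2 exon bases. Of the 36 members 15 shared exon bases with another gene, 3 of them over 10%. The fit was tested on simulated data. Alternatives were other pseudocounts, no filter, quantile normalization, a replicate block, each line alone, single lanes, library weights and leaving out each library. Leaving out 4C and 5C together was added after seeing the data. Some results on genes outside the members are not reported here.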

Additional observations from a re-analysis of the deposited data

Results flagged for a closer look

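The effect of siPOM121 differed between the lines, by the test of the difference itself (limma, Benjamini-Hochberg over all symbols tested), for 4 of the 36 members. All 4 were called lower, where 15.9% of all symbols tested were called lower and 8.93% higher, so their number does not stand out. The 22Rv1DR effect minus the DU145DR effect was -0.31 for QARS, -0.28 for AARS2, -0.34 for VARS2 and -0.19 for IARS on the log2 scale. The calls of AARS2, VARS2 and IARS were each lost when any of several single libraries was left out, and that of QARS was not. QARS was lower in 4 of 4 siPOM121 libraries than in both controls of 22Rv1DR, and higher in 4 of 4 in DU145DR. The lines also differed in how far POM121 fell, and these differences cannot be told apart from that. With 2 libraries per group, single libraries were not screened for outlying values.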

How the results depend on the processing

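Members called kept their sign in every alternative run. Of the 83 fold changes not called, 23 changed sign in an alternative, 0 of them past the threshold. In DU145DR 9 members were lower and 0 higher as reported, with 23.9% of all symbols tested called in either direction. Quantile normalization gave 15 and 1 (25.8% of all symbols), fitting the line alone 15 and 1 (23.9%) and library weights 21 and 1 (37.9%). Higher-numbered lanes gave 1 higher (17%), and leaving out 4C and 5C together gave 21 and 1 (37.7%). Leaving out 1 library gave 2 to 21 lower and 0 to 1 higher. In 22Rv1DR 20 were lower and 0 higher, with 35.5% of all symbols tested called. Quantile normalization gave 1 higher (37.9%) and the line alone 8 lower (15.2%). Construct 1 alone (without 4C and 5C) gave 22 lower and 1 higher (43.1%). Leaving out 1 library gave 8 to 29 lower and 0 to 1 higher. For the line difference, with 4 lower and 0 higher, 24.8% of all symbols tested were called. Quantile normalization (26.5%) and library weights (28.9%) gave 1 higher, lower-numbered lanes 2 lower (17.2%) and higher-numbered lanes 1 lower (17.2%). Leaving out 1 library gave 1 to 13 lower and 0 to 2 higher. Between control lines, with 14 higher and 14 lower, leaving out 1 library gave 12 to 14 higher and 12 to 16 lower. For the siPOM121 comparisons the share of all symbols called shifted along with the member counts when 1 library was left out. The cause of these shifts was not tested, except that leaving out libraries leaves fewer samples. Where a group kept 1 library, it was assumed to vary like the others. The library numbers shared between groups do not pair the libraries (correlations of deviations between -0.10 and 0.13). With a replicate block 9 members were lower in DU145DR, 19 in 22Rv1DR and 4 for the line difference. Between control lines 15 were higher and 14 lower. Of all symbols tested 23.2%, 35.2%, 23.4% and 83% were called in these comparisons, in that order. TARS in 22Rv1DR lost its call with the block. Depth is unknown, so what it limits cannot be stated, and VARS2 lies near the floor.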
